A study of Mus musculus with 6 samples.

Results

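The IFITM, Bst2 and Ly6 genes encode small membrane proteins that mouse cells make in larger amounts after interferon, and 8 of them (Ifitm1, Ifitm2, Ifitm3, Bst2, Ly6a, Ly6c1, Ly6c2 and Ly6e) were followed here by the gene name of their array probes. Of these 8 listed genes 7 had at least 1 probe, with 8 probes among the 55681 probes and 35527 gene names of the array. Ly6c2 had no probe under its own name. The arrays were Agilent mouse expression arrays in 1 color, hybridised with RNA of 3T3 cells, a long-cultured mouse fibroblast line. Cells had received a GapmeR, a short antisense DNA oligonucleotide through which RNase H cuts the RNA it pairs with, at 50 nM for 48 h. It was directed either at the long non-coding RNA Ntep (GapmeR Ntep, 3 arrays) or was GapmeR control (3 arrays), with 1 array per label from each of 3 independent experiments. The comparison asked which transcripts differed after silencing of Ntep. Both labels share the cell line, the dose and the transfection, no array of untransfected cells was analysed here, and the contrast rests on 1 GapmeR per label.

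Type I interferon binds a receptor of the chains Ifnar1 and Ifnar2, and kinases at the receptor then activate transcription factors. With Irf9 these bind interferon-stimulated response elements (ISREs) in the promoters of a large set of genes in many cell types, fibroblasts included. The IFITM proteins sit in the plasma membrane and in endosomes and impede fusion of enveloped viruses. Bst2, also called tetherin, holds budding virions at the surface of the cell. The Ly6 proteins carry a 3-fingered fold and a glycosylphosphatidylinositol (GPI) anchor, and several of them are used as surface markers.

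The Ntep probe, at chr16:98283712-98283771 of mm9, read 472 in experiment 1, 91.5 in experiment 2 and 226 in experiment 3 with the label GapmeR Ntep. With the label GapmeR control it read 271, 272 and 361. The labels overlapped, and experiment 1 went against its label (log2 difference -0.48, SE 0.58, limma adjusted p = 0.632; 0.13 without GapmeR Ntep replicate 2). All directions below are therefore those of the labels. All values are signals in intensity units after quantile normalization, which gives every array the same distribution. Per array, 43.7% to 53.3% of probes were well above background. The 8 member probes were well above background and below saturation on all 6 arrays, so each gave a measured value throughout.

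Which transcripts a probe reads was taken from the files, and probe sequences were compared only with those of other probes of the array. The brighter Ly6c1 probe (probe A, chr15:74875495-74875554 of mm9) is listed for Ly6c1 alone, and its first 30 bases are shown. The other (probe B, chr15:74877785-74877844) is listed in the files for the transcripts of both Ly6c1 and Ly6c2, and all its 60 bases are shown, so its signal is that of Ly6c1 and Ly6c2 together.
Ly6c1 probe A: tattatagtatcaccatccacacataagta
Ly6c1 and Ly6c2 probe B: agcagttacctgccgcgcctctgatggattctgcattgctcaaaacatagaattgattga
No other probe of the array shared a run of 15 bases with these probes, nor with those of Bst2, Ifitm3 or Ly6a. Since Ly6c2 had no probe of its own, this search could not show whether probe A also binds Ly6c2 RNA. The Ifitm1 probe shared a run of 54 bases with the probe of Gm7676, and the Ifitm2 probe a run of 36 bases with an unnamed probe, so the signals of Ifitm1 and Ifitm2 may hold RNA of a near-identical copy.

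Promoter sequences from RefSeq (GRCm38.p6, 250 bases before to 50 after the start of transcription) were at hand for 6 members, which are Ifitm1, Ifitm2, Ifitm3, Bst2, Ly6c1 and Ly6c2. These were searched on both strands for the ISRE letters, which are GAAA and again GAAA with any 2 bases between, and which 3.99% of the 27025 genes with a promoter hold. Bst2, Ifitm2 and Ifitm3 held a match. The matches are shown with 10 flanking bases on each side and the matched bases in capitals, read along the gene's own strand.
Bst2, chr8:71537577-71537612: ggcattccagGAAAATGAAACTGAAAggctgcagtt
Ifitm2, chr7:140955988-140956017: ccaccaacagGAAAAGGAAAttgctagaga
Ifitm3 first, chr7:141010723-141010752: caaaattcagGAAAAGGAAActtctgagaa
Ifitm3 second, chr7:141010706-141010735: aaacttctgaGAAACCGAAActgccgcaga
In Bst2 the matched stretch holds 2 overlapping matches and lies at bases -130 to -115 from the start. In Ifitm2 it lies at -46 to -37, and in Ifitm3 the matches lie past the start, at 3 to 12 and at 20 to 29. The letters of the gamma-activated site, TTCNNNGAA, occur in 9.55% of genes and were found in Bst2, where they overlap the ISRE stretch by 3 bases, and in Ifitm3, where they overlap the second ISRE match. Neither motif was found in the windows of Ifitm1, Ly6c1 and Ly6c2. Among the listed intracellular effectors of interferon, 10 of the 25 with a promoter held the ISRE letters. Of the listed interferon signalling genes 3 of 19 held them, and of the other interferon-induced genes of surface or secreted proteins 1 of 8.

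All 7 measured members were lower under GapmeR Ntep within each of the 3 experiments, which held for 26.9% of all 22094 tested genes. Past a 2-fold difference with an unadjusted limma p under 0.01, 3 of the 7 were lower, namely Ly6a, Bst2 and Ly6c1, and none was higher. Of all tested genes, 5.87% were lower and 3.69% higher at these limits. After Benjamini-Hochberg adjustment over all probes (adjusted p under 0.05), Ly6a and Ly6c1 remained, against a background of 3.84% of genes lower and 2.59% higher. The median log2 difference of the 7 members was -1.44, where that of all tested genes was 0.06. Medians within the experiments were -1.55, -1.29 and -1.58, and the overall median was -0.72 without GapmeR Ntep replicate 1 and -2.07 without control replicate 1. With the experiment as a block, 5 members passed the first limits, those 3 with Ifitm1 and Ly6e. The shares of all genes given above are those of the fit without the block. None is given here for the block, so the count of 5 is not set against a share of all genes. After adjustment, 4292 of the 30990 tested probes passed with the block and 1642 without it. In bulk RNA, fewer cells that express a gene and less RNA per cell cannot be told apart.

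**Figure D1:**
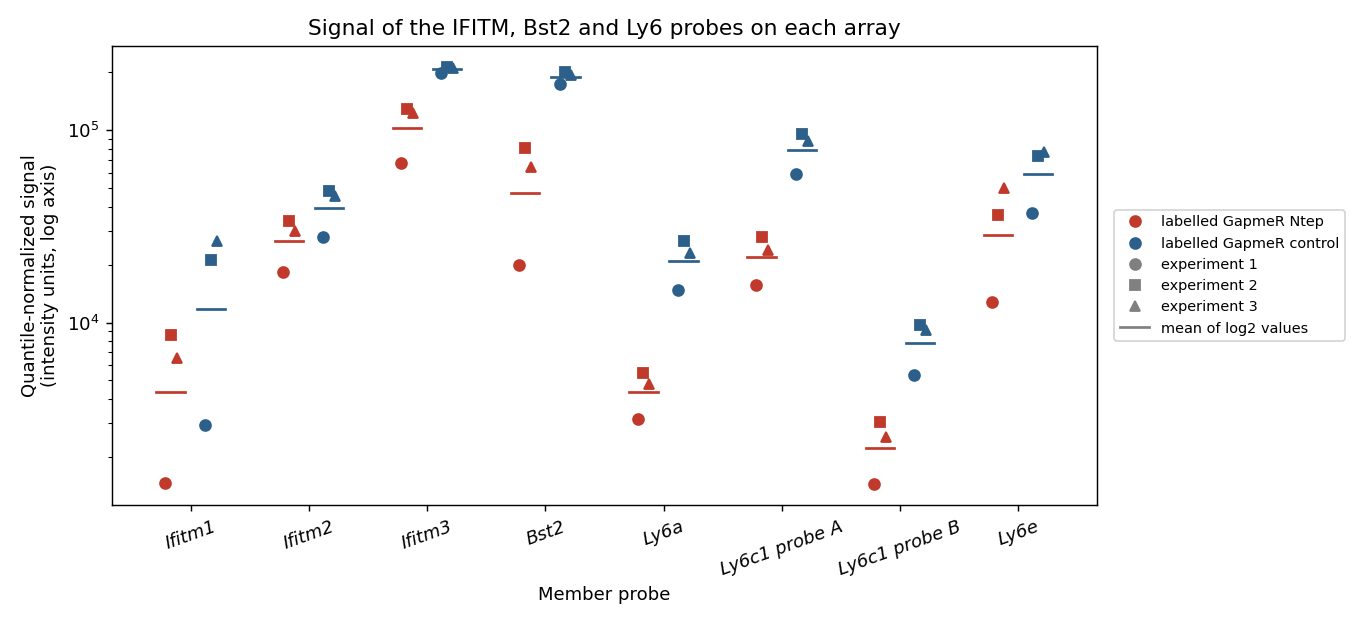
Quantile-normalized signal (intensity units, log axis) of the 8 member probes on each of the 6 arrays, by label (colour) and experiment (marker), with the mean of the log2 values as a line. For Ifitm3, Bst2, Ly6a and both Ly6c1 probes every array labelled GapmeR Ntep lies below every control array.

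Ly6a, like the other Ly6 members, codes for a GPI-anchored protein. It encodes stem cell antigen 1 (Sca-1), a marker of stem and progenitor cells. Its probe (chr15:74825553-74825612 of mm9) gave 3144, 5486 and 4773 under GapmeR Ntep in experiments 1, 2 and 3. Under GapmeR control it gave 14845, 26595 and 22905. Every control array lay above every GapmeR Ntep array, so the groups did not overlap. Ly6a fell by 2.26 on the log2 scale (SE 0.32, limma p = 0.000369, adjusted p = 0.0281, exact permutation p = 0.1), a 4.79-fold difference, and 0.1 is the smallest that a permutation of 3 against 3 arrays can give. Within experiments the differences were -2.24, -2.28 and -2.26, although the levels themselves varied between experiments under both labels.

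Ly6c1 encodes a surface antigen that marks inflammatory monocytes and is also found on endothelial cells. Probe A gave 15672, 27770.1 and 23926 under GapmeR Ntep and 59161, 95725 and 88315 under control. All 3 control arrays were above all 3 GapmeR Ntep arrays. Ly6c1 fell by 1.86 (SE 0.30, limma p = 0.000804, adjusted p = 0.0335, exact permutation p = 0.1), or 3.64-fold, with -1.92, -1.79 and -1.88 within experiments. Probe B, shared with Ly6c2, gave 1443, 3043 and 2525 against 5308, 9728 and 9174, again without overlap. It was lower by a log2 difference close to that of probe A, -1.81 (SE 0.38, limma adjusted p = 0.0515), and within experiments it was -1.88, -1.68 and -1.86. Neither probe reads Ly6c2 alone, so its own level is not known from these arrays.

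The adjusted calls of Ly6a and Ly6c1 rested on all arrays but one. Without GapmeR Ntep replicate 2 both held (limma adjusted p = 0.0427 and 0.0459). Without GapmeR Ntep replicate 1 they were 0.0531 and 0.0622, and without GapmeR Ntep replicate 3 they were 0.102 and 0.111. Without control replicates 1, 2 and 3, Ly6a gave 0.0551, 0.131 and 0.111 and Ly6c1 gave 0.0575, 0.146 and 0.133. The log2 difference of Ly6a stayed between -2.50 and -2.03 and that of Ly6c1 between -2.07 and -1.62 over these omissions. Their unadjusted limma p was 0.000406 to 0.00426. Over the whole array, 1642 probes passed the adjustment with all arrays. That number was 540, 1403 and 0 without GapmeR Ntep replicates 1, 2 and 3, and 141, 0 and 5 without control replicates 1, 2 and 3.

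Ly6e, which encodes a GPI-anchored protein that impedes entry of coronaviruses, was covered at chr15:74789592-74789651. It gave 12856, 36385 and 50109 under GapmeR Ntep and 37108, 73269 and 76926 under control. The arrays overlapped, since control 1 lay below the highest GapmeR Ntep array. Its difference on the log2 scale, -1.05 (SE 0.57, limma adjusted p = 0.310), was within the spread of the arrays. It was -1.53, -1.01 and -0.62 within experiments. With the experiment as a block its limma p was 0.00919 (adjusted p = 0.0564).

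Bst2 was read by 1 probe at chr8:74058603-74058662. It gave 19824, 81149 and 64515 under GapmeR Ntep and 175000.0, 201166 and 192786 under control. The groups did not overlap, and the lowest value by far was that of GapmeR Ntep in experiment 1. Bst2 was lower by 4.03-fold (log2 difference -2.01, SE 0.53, limma p = 0.00908, exact permutation p = 0.1), which passed the unadjusted limits but not the adjustment (adjusted p = 0.0833). The within-experiment differences of -3.14, -1.31 and -1.58 varied far more than those of Ly6a. Without GapmeR Ntep replicate 1 the difference was smaller, -1.39, and passed the adjustment (limma adjusted p = 0.0483). Without GapmeR Ntep replicate 3 or any one control array the unadjusted p was 0.0141 to 0.0283.

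The 3 IFITM genes lie near each other on chromosome 7 and differed in how far they moved. Ifitm3, the family member best known for blocking influenza virus, was read at chr7:148195591-148195650 by 10 spots per array whose coefficient of variation within an array was 2.43% to 6.77%. It gave 67762, 129364 and 122944 under GapmeR Ntep and 198562, 213908 and 210456 under control. Control arrays lay close together and above every GapmeR Ntep array. The log2 difference of -1.02 (SE 0.28) reached 2-fold but missed the p limit and the adjustment (limma p = 0.0114, adjusted p = 0.0927, exact permutation p = 0.1), and was -1.55, -0.73 and -0.78 within experiments. On control arrays the Ifitm3 signal before normalization was 37.1% to 57.2% of the brightest probe of the array.

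Ifitm2 (chr7:148140881-148140940) gave 18419, 33615 and 30008 under GapmeR Ntep. Under control it gave 27809.7, 48292 and 45741. The groups overlapped, since control 1 lay below 2 of the GapmeR Ntep arrays. The log2 difference was -0.58 (SE 0.33, limma adjusted p = 0.335), the smallest in size among the members, yet it was nearly equal in the experiments, at -0.59, -0.52 and -0.61. With the block its limma p was 0.0114 (adjusted p = 0.0620). The unnamed probe sharing 36 bases with it gave -0.58 as well (limma adjusted p = 0.355).

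Ifitm1 (chr7:148155659-148155718) varied most between experiments. It gave 1459, 8662 and 6574 under GapmeR Ntep and 2932, 21136 and 26654 under control. Control 1 lay below 2 of the GapmeR Ntep arrays. The log2 difference of -1.44 had an SE of 1.05 (limma adjusted p = 0.442), so it was not told apart from the spread of the arrays. Within experiments it was -1.01, -1.29 and -2.02, and with the experiment as a block it passed (limma adjusted p = 0.0425). The Gm7676 probe, with which it shares 54 bases, gave -1.39 (limma adjusted p = 0.447).

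**Figure D2:**
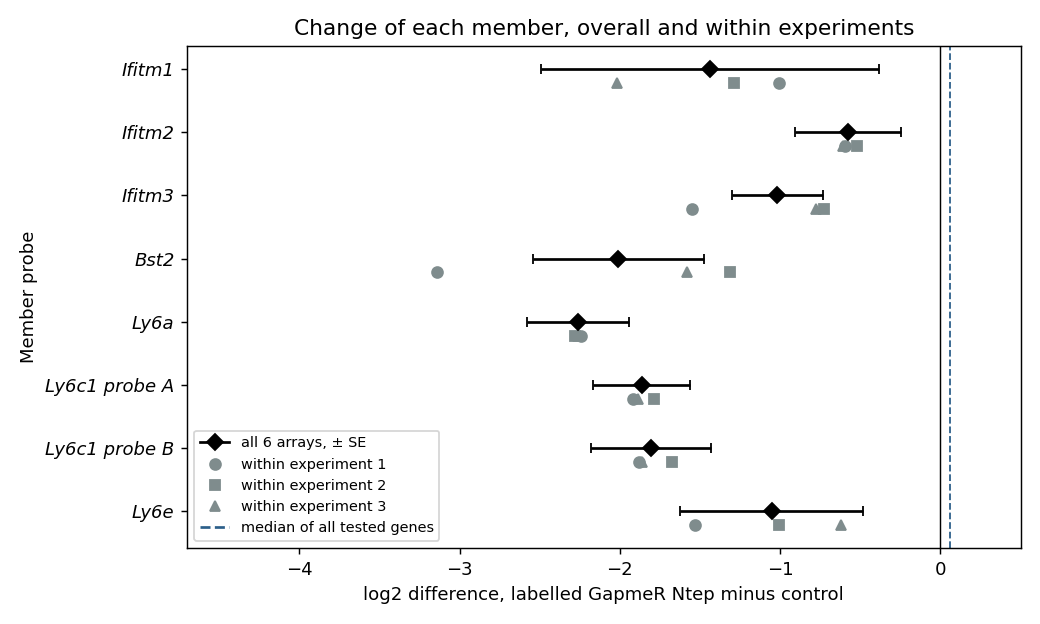
Log2 difference (labelled GapmeR Ntep minus control) of each member probe over all 6 arrays (diamond, bar is the SE) and within each experiment (grey markers), with the median of all tested genes (0.06) dashed. Ly6a, Ifitm2 and both Ly6c1 probes have nearly equal differences in the 3 experiments, while Bst2 runs from -3.14 to -1.31.

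Of the 8 probes, 5 were lower on every array labelled GapmeR Ntep than on every control array (Bst2, Ifitm3, Ly6a and both of Ly6c1), and 15.2% of all tested probes were. In order of size the differences ran Ly6a, Bst2, Ly6c1, Ifitm1, Ly6e, Ifitm3 and Ifitm2. Sizes were compared over all 21 pairs by an exact permutation test (two-sided) of the difference of log2 values. This too cannot go below 0.1, and no adjusted p was below 0.21. Neighbours in the order had exact p-values of 0.7, 0.8, 0.6, 0.7 and 1, from Ly6a against Bst2 to Ly6e against Ifitm3, and their values overlapped between labels. The last neighbours, Ifitm3 and Ifitm2, did not overlap, with Ifitm3 lower by a further 0.44 (SE 0.23, exact p = 0.1). Ly6a differed from Ifitm2 by -1.68 (SE 0.05, exact p = 0.1), with -1.64, -1.75 and -1.65 within experiments. Ly6a differed from Ly6c1, which lies near it on chromosome 15, by -0.40 (SE 0.04, exact p = 0.1).

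Arrays of experiment 1 gave the lowest signal of their label for all 8 member probes, under both labels, which was so for 24.2% of all tested probes. This level difference between experiments is what the block removes. Each member correlated with the mean of the other members over the 6 arrays at 0.81 (Ifitm1) to 0.95 (Ifitm3), in libraries that share labels and experiments. Outside the members, the 5 of 16696 genes whose profile was most like their mean over the 6 arrays were Fanca, Qser1, Osgep, BC052040 and Vcan (Pearson r 0.996 to 0.998). Fanca belongs to the Fanconi anemia DNA repair pathway and Vcan encodes the matrix proteoglycan versican. Their log2 differences were -1.41, -0.73, -1.01, -0.91 and -1.09, and none passed the adjustment (limma adjusted p from 0.123 to 0.179).

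**Figure D3:**
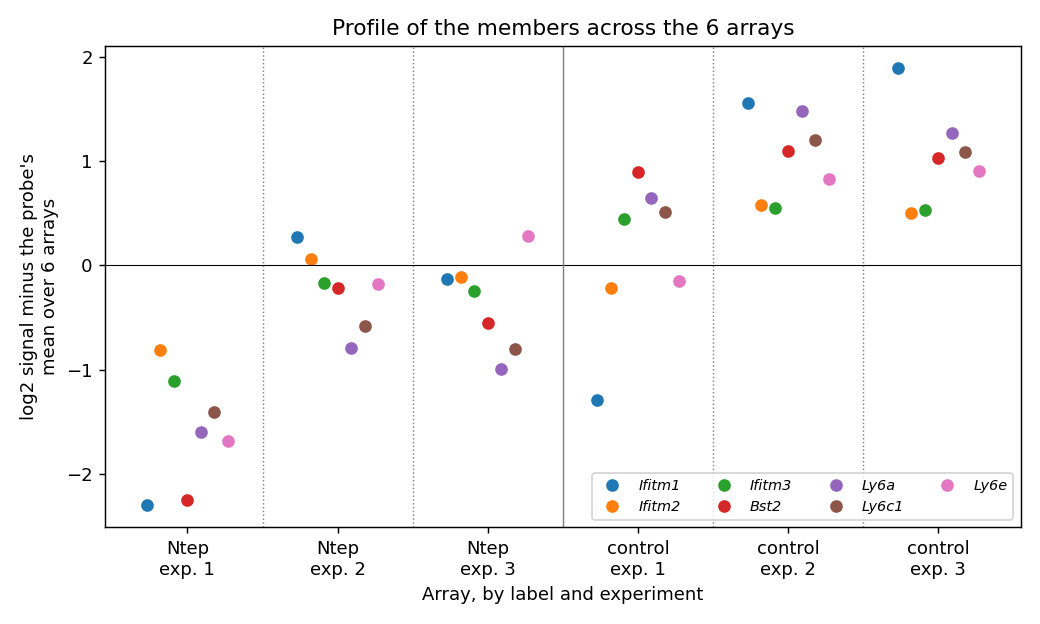
Log2 signal of the brightest probe of each member minus its mean over the 6 arrays, by array. All members are below 0 on the GapmeR Ntep array of experiment 1, and on the control array of that experiment Ifitm1, Ifitm2 and Ly6e are below 0 too.

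Relatives of the members were less uniform. Of the 4 other IFITM family genes none passed either limit in the unpaired fit by limma or by the methods' t-test (3 and 2 at an unadjusted p under 0.05), and their median was 0.16. For counts at an unadjusted p under 0.05, here and in the lists below, no share of all genes is given. The block gave 1 higher at both limits. Past the unadjusted limits 2 were higher with scaling to the 75th percentile, and 1 without GapmeR Ntep replicate 1 or control replicate 3. Ifitm7 gave -0.64 (limma adjusted p = 0.0773) and Ifitm6 gave -1.55 (0.451), while Ifitm5, a bone-restricted member, gave 1.74 (0.159) and Ifitm10 gave 0.96 (0.110). Only Ifitm7 was well above background on all 6 arrays.

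In the Ly6 cluster of chromosome 15, 13 of 15 other genes had a probe and 9 were tested. Of these 3 were lower past the unadjusted limits and 2 after adjustment, with a median of -1.10. A negative log2 difference was found for 5 of the 9, and for 45.7% of all tested genes. Of the 13 genes with a probe, 4 had a brightest probe well above background on all 6 arrays. Ly6d, a marker of early B cell and epithelial progenitors, gave 289, 279 and 316 under GapmeR Ntep and 598, 1081 and 1274 under control (log2 difference -1.67, limma adjusted p = 0.0406). Ly6i was well above background on the control arrays only and was at least 3.02-fold lower under GapmeR Ntep (limma adjusted p = 0.0384), a bound set by the lowest signal that counted as above background. Lynx1, which encodes a modulator of nicotinic receptors, was lower by 1.46 on the log2 scale (limma adjusted p = 0.0844). Without GapmeR Ntep replicate 1 the median of these genes was -0.31, and without control replicate 2 it was -0.71. The adjusted count was 1 without GapmeR Ntep replicate 2 or control replicate 1 and 0 without any one of the other arrays. In most of these omissions few probes of the whole array passed the adjustment, as given for Ly6a and Ly6c1 above. Adjusted counts of the lists below carry the same limit.

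Of the Ly6/uPAR family outside the cluster, 10 of 15 genes were tested, with a median of 0.74. Lypd3 was well above background on the GapmeR Ntep arrays only and at least 11.1-fold higher there (limma adjusted p = 0.0288), and no gene of this group was lower past either limit. When 1 array was left out, the adjusted count of higher genes was 1 without GapmeR Ntep replicate 2 and 0 otherwise, and with the experiment as a block it was 2. Plaur, the urokinase receptor, gave 1.00 (limma adjusted p = 0.340).

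Genes beside the members on the chromosome mostly did not pass the limits. Of 10 genes next to the Ifitm cluster 1 was lower, Athl1, from 2111, 2637 and 2369 under control to 466, 992 and 613 under GapmeR Ntep (log2 difference -1.85, limma adjusted p = 0.0344). Of 10 genes next to Bst2 1 was lower, Fam125a, which encodes a subunit of the ESCRT-I sorting complex. It gave 9198, 15809.6 and 13805 under GapmeR Ntep and 31195, 35097 and 39673 under control (log2 difference -1.48, limma adjusted p = 0.0359). Medians of both groups of neighbours were 0.02 and 0.04, near that of all genes. When 1 array was left out, the adjusted count in each group was 1 without GapmeR Ntep replicate 2 and 0 without any other array. Next to the Ifitm cluster 2 genes were lower at both limits with the block.

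Bst2 and the Ly6 proteins need a GPI anchor. Of 27 tested genes of anchor synthesis and attachment, 1 was lower past the unadjusted limits (Pgap2, which remodels the anchor, at -1.02) and none after adjustment in the unpaired fit by limma or the methods' t-test (8 at an unadjusted p under 0.05 in each), with a median of -0.23. In the fit with the block 3 were lower and 1 higher past the unadjusted limits, and 2 were lower after adjustment. The first count was 3 without GapmeR Ntep replicate 2 and 0 without GapmeR Ntep replicate 3 or any one control array. Of 15 other genes of GPI-anchored proteins, Art3 had the largest difference but did not pass (-2.74, limma adjusted p = 0.119). Bst1 was lower (-1.62, limma adjusted p = 0.0288) and Efna1 higher (1.08, 0.0394), and the 15 genes had a median of -0.83. With the experiment as a block, 4 of these were lower after adjustment. Without the block, leaving out GapmeR Ntep replicate 3, control replicate 2 or control replicate 3 gave 0 lower, leaving out GapmeR Ntep replicate 2 gave 2 (4 past the unadjusted limits), and the adjusted count of higher genes was 0 in each of the 6 omissions. Thy1, a GPI-anchored marker of fibroblasts, gave 0.05 (limma adjusted p = 0.949) and was singled out after its value was seen. Of 5 genes of enzymes and partners of IFITM proteins none passed either limit in the unpaired fit by limma or the methods' t-test (2 and 1 at an unadjusted p under 0.05), with a median of -0.38. The block gave 1 lower after adjustment.

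Many genes of interferon signalling were lower as well. Of 19 tested signalling genes 9 were lower past the unadjusted limits and 10 after adjustment, with a median of -1.03. At its start, Ifnb1, which encodes interferon beta, gave 479, 1058 and 862 under GapmeR Ntep and 6055, 4440.4 and 2857 under control. The groups did not overlap (log2 difference -2.49, SE 0.40, limma adjusted p = 0.0335). Ifna4, an interferon alpha, gave 33.8, 147 and 91.4 against 2081, 1412 and 852 (-4.14, limma adjusted p = 0.0288), with 1 of the 3 GapmeR Ntep arrays well above background. The receptor chains Ifnar1 and Ifnar2 gave -0.09 and -0.08 (limma adjusted p = 0.886 and 0.851), named after their values were seen. Usp18 gave -2.20 (limma adjusted p = 0.0436) and Irf7 gave -2.30 (0.146).

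Of 35 genes of intracellular interferon effectors, all had a negative log2 difference, 24 were lower past the unadjusted limits and 14 after adjustment. Their median was -1.67. Mx1, a GTPase that blocks influenza virus, gave -3.83 (limma adjusted p = 0.0542), Zbp1, a sensor of Z-form nucleic acid, -3.44 (0.0220), Uba7, which activates Isg15 for conjugation, -3.39 (0.0489), and Cmpk2 -2.94 (0.0287). Oas1g, well above background on control arrays only, was at least 5.25-fold lower (0.0182). The first count was 13 without control replicate 2 and 15 without control replicate 3. The adjusted count was 0 without GapmeR Ntep replicate 3, control replicate 2 or control replicate 3, 1 without control replicate 1, and 26 with the block. In the same order, 0, 0, 5 and 141 probes of the whole array passed in these omissions, and 4292 with the block. By the methods' t-test 12 effectors were lower past the unadjusted limits and 2 after adjustment.

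Of 9 other interferon-induced genes of surface or secreted proteins, 5 were lower past the unadjusted limits (3 without control replicate 2) and 4 after adjustment, with a median of -0.95. Tnfsf10, which encodes the death ligand TRAIL, gave -4.58 (limma adjusted p = 0.0157), Lgals3bp -2.07 (0.0401), Cd40 -1.33 (0.0767), Cd274 (PD-L1) -1.27 (0.0459) and Vcam1 -0.95 (0.137). Their adjusted count was 1 without GapmeR Ntep replicate 1 or control replicate 1 and 0 without GapmeR Ntep replicate 3, control replicate 2 or control replicate 3. That of the signalling genes was 3 without GapmeR Ntep replicate 1 and 0 without GapmeR Ntep replicate 3 or any one control array. By the methods' t-test 5 signalling genes were lower past the unadjusted limits and 2 after adjustment, and of the surface or secreted proteins 3 and 1. With scaling to the 75th percentile the adjusted counts were 5 and 2.

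**Figure D4:**
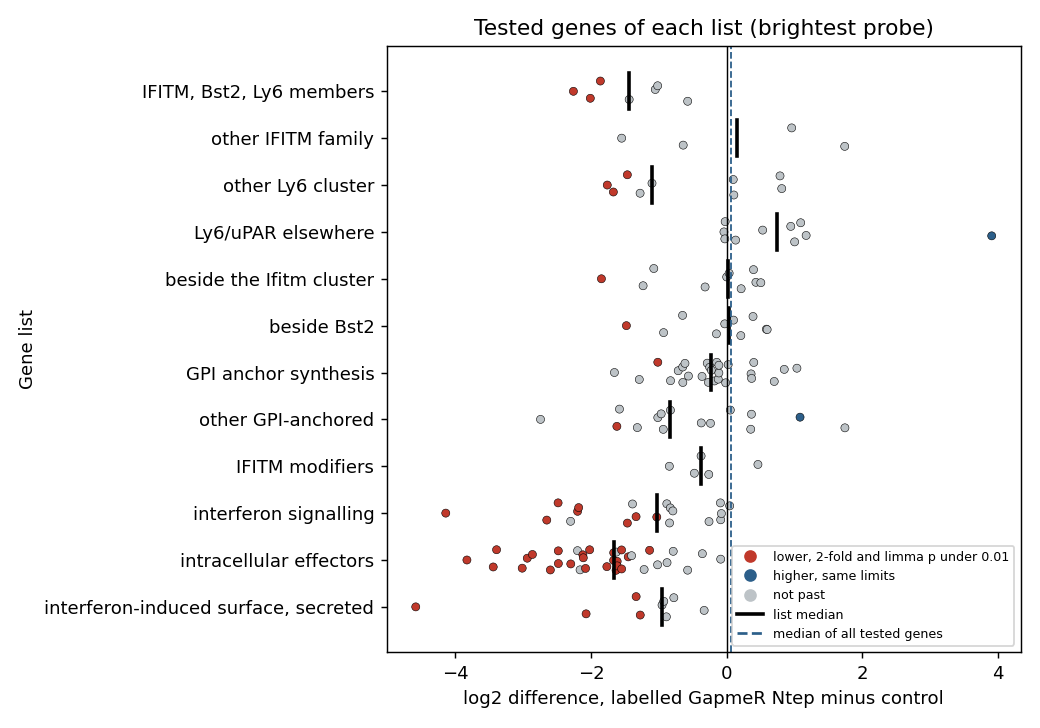
Log2 difference (labelled GapmeR Ntep minus control) of each tested gene, brightest probe, for the members and 11 other lists, with the list median as a bar and the median of all tested genes (0.06) dashed. The members (median -1.44) and the interferon lists lie to the left of that line, and the neighbours of Ifitm and Bst2 lie around it.

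Some members also mark other cells (Ly6c1 monocytes and endothelium, Ly6a progenitors), so marker genes were read beside them. All 12 fibroblast markers were well above background on all 6 arrays and by limma none passed either limit (3 at an unadjusted p under 0.05, 1 after adjustment by the methods' t-test, median -0.41). Of these 12, 11 had a negative log2 difference, as did 45.7% of all tested genes. The summed signal of the fibroblast markers was 670394 to 863169 under GapmeR Ntep and 957714 to 1042465 under control. Of 10 macrophage markers, 5 (Adgre1, C1qa, Fcgr1, Mrc1 and Ptprc) were not above background on any array. The summed macrophage signal, to which bright probes add most, was 33162 to 62852 under GapmeR Ntep against 15631 to 21350 under control. One by one the 5 tested macrophage markers were mixed. A negative log2 difference was found for 2 of them, and 1, Cd68, was higher (1.21, limma adjusted p = 0.0287). Negative differences were found for 2 of 7 epithelial, 2 of 4 lymphocyte and 0 of 3 endothelial markers tested. Endothelial markers summed to 982 to 1292 against 639 to 777 with 5 of 8 not above background on any array, epithelial markers to 1692 to 3869 against 820 to 1832 with 1 of 7 higher (Ocln, 1.87), and lymphocyte markers to 860 to 1127 against 763 to 914 with 6 of 10 not above background on any array. Of macrophage markers the adjusted count was 2 without GapmeR Ntep replicate 2 and 0 without any other array, and of epithelial markers it was 0 without GapmeR Ntep replicate 3 or any one control array. With the experiment as a block 3 macrophage, 2 epithelial and 1 endothelial markers were higher after adjustment. The part of other cell types in these differences was not tested.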

How the data were processed

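Per the file headers and labels, the authors read the Agilent scans with Feature Extraction 10.7.3.1. For each array they deposited linear intensities with the background subtracted, not yet brought to 1 scale, and for the series a table of quantile-normalized intensities with values under 20 set to 20. Of that table, 87.8% of values lay within 1% of those computed here, and members by at most 0.02 on the log2 scale. Probe coordinates are those the files give, on mm9. Here, control spots were left out, spots of a probe were averaged, the same normalization and floor of 20 were applied, and the 30990 probes whose mean reached 50 under at least 1 label were tested on log2 values with limma 3.58.1 in R 4.3.3, two-sided and unpaired. The brightest probe stands for a gene, and a gene counts as past a limit with any probe. Figures were drawn with matplotlib, and motifs searched with Python 3.11.15.

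Members and gene lists were chosen with earlier results of these data known. Named genes are the members, at most 5 per list with the largest difference, the 5 most like profiles and Ntep. Efna1, Thy1, Ifnar1 and Ifnar2 are named outside this rule. A named gene of the signalling list is not reported here. GEO's labels give no experiment number. Replicates are numbered in accession order, which matches the numbering of the study's supplement, where same-numbered arrays come from 1 experiment. The residual correlation was 0.466, 0.300 and 0.254 between same-numbered arrays against -0.327 to 0.126 otherwise, so a fit with the experiment as a block was run too. The number of arrays, 3 per label, limits the precision. Other normalizations, background correction, floors, filters, tests, weights and the omission of each array were tried. The steps were tested on simulated data.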

Additional observations from a re-analysis of the deposited data

How the results depend on the processing

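Over 19 other settings no member changed direction. The median log2 difference of the members was -1.68 with array weights and -2.07 to -0.72 when 1 array was left out. With scaling to the 75th percentile the members' median was -1.36, and all genes together shifted from 0.06 to 0.22. Past the unadjusted limits, 2 to 3 members were lower when 1 array was left out, 5 with the experiment as a replicate block (pairing the arrays of an experiment), and 2 to 4 in the other settings. After adjustment, the count of 2 became 0 without a filter on dim probes and 0 with the methods' t-test. In each, 4 members had an unadjusted p under 0.05, a limit for which no share of all genes is given here. Over the whole array, 564 and 285 probes passed the adjustment in these settings, against 1642 in the main fit. The count was 4 with a trended and robust prior and 5 with array weights, where 2667 and 10260 of all 30990 tested probes passed. It was 1 without GapmeR Ntep replicate 1 and 2 without GapmeR Ntep replicate 2. It was 0 without GapmeR Ntep replicate 3 or any one control array, where limma gave 4 to 6 members an unadjusted p under 0.05. Few probes of the whole array passed the adjustment there. Their number was 0 without GapmeR Ntep replicate 3 and 141, 0 and 5 without control replicates 1, 2 and 3. The replicate block gave 3, adding Ifitm1 (limma adjusted p = 0.0425), and 4292 of the 30990 tested probes passed with it. Leaving out both arrays of experiment 1, chosen after seeing the data, gave 4 and 2 at the 2 limits. The Ntep difference was -1.06 to 0.13 when 1 array was left out, turning direction without GapmeR Ntep replicate 2. The cause of these shifts was not tested. By the methods' t-test no gene of the Ly6 cluster, the neighbours, the Ly6/uPAR family or the macrophage markers passed the adjustment (4, 3 and 1, 1, and 2 at an unadjusted p under 0.05). Counts could not be formed for the mean over the probes of a gene.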
